A study of Mus musculus with 24 samples.

Results

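The miRNAs described here are the 5 mature strands of 3 hairpins that are abundant in red blood cells: mmu-miR-451a, mmu-miR-144-3p, mmu-miR-144-5p, mmu-miR-486a-5p and mmu-miR-486a-3p. They were taken by name, as the array entries that carry exactly these names, a rule that uses no measured value, although the set was picked with earlier results of these data known. They are 5 of the 1881 miRNAs on the array, and all 5 were among the 444 miRNAs bright enough to be tested.

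MicroRNA was measured on one-colour arrays in RNA from serum exosomes, the small vesicles that cells release into blood. The male BALB/c mice received toosendanin (TSN), a plant triterpenoid that can injure the liver, at 80 mg/kg, or vehicle. The groups were TSN day 3, TSN day 9, TSN day 21, control day 3, control day 9 and control day 21, with 4 arrays in each, which is the n of every mean ± SD below. The ages of the mice, and whether an array holds 1 animal or a pool of serum, are not given in the sources used here, so the p-values cover only the spread among the arrays of a group, which may be technical.

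All TSN arrays were brighter than all control arrays. The 75th percentile of the unscaled signal was 737 to 1748 fluorescence units on TSN arrays and 73.5 to 609 units on control arrays, and 379 to 471 miRNAs on TSN arrays against 184 to 351 on control arrays were well above background. Each array was divided by its own 75th percentile before any comparison, and a level below is the log2 of that scaled signal. A rise or fall of a level is therefore relative to the array's own 75th percentile. No slide and no scan date carried both arms, so TSN cannot be told apart from slide or scan date. The comparisons of TSN day 21 with TSN day 9 and of control day 9 with control day 3 lie within 1 slide each.

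In mouse erythroid cells miR-144 and miR-451a are cut from 1 primary transcript that the red cell regulator GATA1 switches on, and both accumulate as red cells mature. The miR-451a hairpin is too short for Dicer and is cut by Argonaute 2, so that a single strand remains, whereas miR-144 and miR-486a are made in the usual way and leave a 5p and a 3p strand. The miR-486a gene lies inside Ank1, the gene of the membrane skeleton protein ankyrin 1, and is transcribed in red cell precursors and in striated muscle. Because red cells hold so much of these RNAs, miR-451a set against miR-23a-3p is used as a check for lysed red cells in human serum. In serum RNA of this kind, more vesicles from a cell type and more of a miRNA per vesicle cannot be told apart.

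The mature strands are shown because they are what the probes bind and because miR-144-3p has a relative in the lists below. RefSeq on GRCm38.p6 gave sequences for 3 of the 5 members. Capitals mark the seed, bases 2 to 8 counted from the 5′ end, which sets target choice.
mmu-miR-451a, chr11:78073186-78073207, plus strand: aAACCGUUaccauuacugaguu
mmu-miR-144-3p, chr11:78073047-78073066, plus strand: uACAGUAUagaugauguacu
mmu-miR-144-5p, chr11:78073010-78073032, plus strand: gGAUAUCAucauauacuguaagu
mmu-miR-101a-3p, chr4:101346957-101346977, minus strand: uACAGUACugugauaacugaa
No other mature miRNA among the 1679 in the table had the seed of any of these 3 members. mmu-miR-101a-3p, which is enriched in liver among other tissues, shared bases 2 to 7 with mmu-miR-144-3p.

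The hairpins are shown because their order on the chromosome and their shape set these strands apart, with the mature strands in capitals. The gap between them is 99 bases.
Mir144, chr11:78073005-78073070, plus strand: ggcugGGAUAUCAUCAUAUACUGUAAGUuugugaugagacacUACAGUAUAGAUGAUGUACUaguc
Mir451a, chr11:78073170-78073241, plus strand: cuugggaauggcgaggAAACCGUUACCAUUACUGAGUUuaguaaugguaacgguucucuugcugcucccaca

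For miR-486a the array probes are shown, since they limit what could be told apart. Capitals mark the run shared by the miR-486a-3p and miR-486b-3p probes.
Probe of mmu-miR-486a-5p: ctcggggcagctca
Probe of mmu-miR-486a-3p: aTCCTGTACTGAGCTGC
Probe of mmu-miR-486b-3p: TCCTGTACTGAGCTGC
The 2 probes of the 3p strands share 16 bases, so their signals cannot be assigned to one gene or the other. The file's annotation of the 14-base miR-486a-5p probe also lists miR-3107-5p, a former name of miR-486b-5p.

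At day 9, 3 of the members were higher in TSN serum exosomes. mmu-miR-144-3p rose 3.02-fold, mmu-miR-486a-5p rose 2.44-fold and mmu-miR-451a rose 1.75-fold, while mmu-miR-144-5p and mmu-miR-486a-3p, the partner strands of their hairpins, fell. Thus 3 of the 5 members were higher at day 9, where 27.9% of all tested miRNAs were, and 2 were lower, where 34.2% of all tested miRNAs were. At day 3, 1 member was higher (29.1% of all tested miRNAs) and 2 were lower (18.2%). At day 21, none was higher by limma (23.2% of all tested miRNAs; 0 of 5 at an unadjusted p under 0.05) and 2 were lower (21.6%). At day 9 the share of members that rose was above that of all tested miRNAs and the share that fell was near it, and the 2 falls of that day did not pass under several other scalings. The split of all tested miRNAs itself moved with the scaling: 129 were higher and 81 lower at day 3, against 104 and 131 with spike-in scaling, and 103 were higher and 96 lower at day 21, against 52 and 108 with spike-in scaling, both counted relative to the median miRNA. At day 9, 44.9% of the called miRNAs were higher, against 59.8% after quantile normalization. Relative to the median miRNA, spike-in scaling, no scaling and the percentile over all probes moved the members together, though not all equally. Without scaling at day 9, mmu-miR-451a, mmu-miR-144-3p, mmu-miR-144-5p and mmu-miR-486a-5p each moved by 1.11, while mmu-miR-486a-3p moved by 0.76. A sign that turned under these scalings cannot be separated from that joint move.

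**Figure D1:**
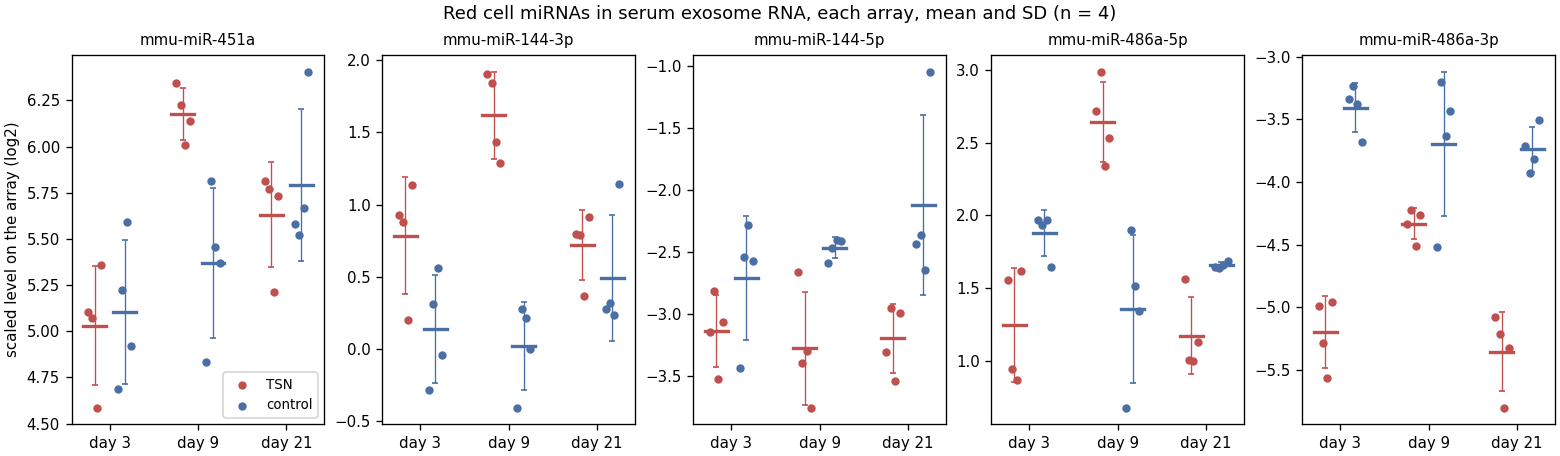
Scaled level (log2) of each member on every array, in 1 panel per miRNA with its own axis, TSN in red and control in blue at each day, with the group mean as a bar and the SD as an error bar (n = 4). The TSN day 9 arrays of mmu-miR-451a, mmu-miR-144-3p and mmu-miR-486a-5p lie above all control day 9 arrays, and the TSN arrays of mmu-miR-486a-3p lie below the control arrays at days 3 and 21.

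mmu-miR-451a, the Argonaute-cut strand of red cells, had levels of 6.34, 6.22, 6.01 and 6.14 on TSN day 9 arrays, against 4.83, 5.82, 5.45 and 5.37 on control day 9 arrays. The groups did not overlap, and the change was 0.81 with a standard error (SE) of 0.23 (limma, adjusted p = 0.00555). At day 3 the levels were 5.11, 5.07, 4.59 and 5.36 on TSN arrays, against 4.69, 5.22, 5.59 and 4.92 on control arrays. These overlapped throughout, with a change of -0.07 (95% interval -0.56 to 0.41, adjusted p = 0.871). At day 21 they were 5.82, 5.77, 5.21 and 5.73 on TSN arrays, against 5.58, 5.52, 5.67 and 6.41 on control arrays, again overlapping, with a change of -0.16 (95% interval -0.65 to 0.33, adjusted p = 0.65). In order, the group means were 6.18 for TSN day 9, 5.79 for control day 21, 5.63 for TSN day 21, 5.37 for control day 9, 5.11 for control day 3 and 5.03 for TSN day 3, and each group overlapped its neighbour in that order. At day 3 mmu-miR-451a was instead called higher after quantile normalization (0.79, adjusted p = 0.00629) and in the authors' deposited values (0.91, adjusted p = 0.00194). At day 21 it was called higher in the deposited values (1.51, adjusted p = 1.72e-05). These values are relative to the median miRNA, and mmu-miR-451a sat at the top value of the authors' table on 7 TSN arrays and on no control array.

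mmu-miR-144-3p, which is transcribed together with miR-451a and in human red cell precursors targets the antioxidant regulator NRF2, had levels of 1.90, 1.84, 1.43 and 1.29 on TSN day 9 arrays, against -0.40, 0.28, 0.21 and 0.00 on control day 9 arrays. Every TSN array was more than 1 log2 unit above the highest control array, and the change was 1.60 with an SE of 0.24 (limma, adjusted p = 1.36e-05). At day 3 the levels were 0.93, 0.88, 0.20 and 1.14 on TSN arrays, against -0.28, 0.31, 0.56 and -0.04 on control arrays, so that 3 TSN arrays lay above all controls and TSN array 3 among them. That change of 0.65 (SE 0.24) passed at an adjusted p of 0.0322, but not without control array 1 or 4 or without TSN array 1, 2 or 4 (adjusted p 0.0663 to 0.118), nor under 4 of the 12 alternatives. Among these were quantile normalization (0.61, adjusted p = 0.0927) and the authors' deposited values (0.41, adjusted p = 0.173). At day 21 the levels were 0.80, 0.79, 0.37 and 0.92 on TSN arrays, against 0.27, 0.32, 0.24 and 1.15 on control arrays. The highest array of that day was control array 4, and the change was 0.23 (95% interval -0.28 to 0.73, adjusted p = 0.511). The order of means was 1.62 for TSN day 9, 0.79 for TSN day 3, 0.72 for TSN day 21, 0.49 for control day 21, 0.14 for control day 3 and 0.02 for control day 9, where TSN day 9 stood clear of TSN day 3 and every other neighbouring pair overlapped.

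mmu-miR-144-5p, the partner strand from the same hairpin, ran the other way. Its levels were -2.66, -3.39, -3.30 and -3.75 on TSN day 9 arrays, against -2.59, -2.46, -2.41 and -2.41 on control day 9 arrays, and -3.31, -2.95, -3.54 and -2.99 on TSN day 21 arrays, against -2.43, -2.36, -2.64 and -1.05 on control day 21 arrays. The groups did not overlap on either day, and it fell by 0.81 at day 9 (SE 0.30, adjusted p = 0.0258) and by 1.07 at day 21 (SE 0.30, adjusted p = 0.0068). The day 9 fall did not pass without control array 3 or 4 or TSN array 2 or 4 (adjusted p 0.0502 to 0.0878), and the sign turned without scaling (0.30, relative to the median miRNA). The day 21 fall did not pass under 5 of the 12 alternatives. These were the percentile over all probes (-0.93, adjusted p = 0.0708), spike-in scaling (-0.71, adjusted p = 0.193), no scaling (-0.57, adjusted p = 0.428), total gene signal (-0.96, adjusted p = 0.115) or only the groups compared in the fit (adjusted p = 0.0511). At day 3 the levels were -3.15, -2.82, -3.52 and -3.07 on TSN arrays, against -3.43, -2.54, -2.28 and -2.57 on control arrays, which overlapped through control array 1 (change -0.43, 95% interval -1.06 to 0.20, adjusted p = 0.269). This strand was dim, at 97.5 to 268 unscaled units on TSN arrays and 11 to 97.5 units on control arrays. The order of means was -2.12, -2.47 and -2.71 for control days 21, 9 and 3, then -3.14, -3.20 and -3.28 for TSN days 3, 21 and 9, with each neighbouring pair overlapping.

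mmu-miR-486a-5p, an abundant strand of red cells that striated muscle also makes, was the member that changed in opposite directions at days 3 and 9. Its levels were 2.72, 2.99, 2.34 and 2.53 on TSN day 9 arrays, against 0.68, 1.90, 1.51 and 1.34 on control day 9 arrays, and it rose by 1.28 (SE 0.22, adjusted p = 4.29e-05). At day 3 it had 1.55, 0.94, 0.87 and 1.61 on TSN arrays, against 1.97, 1.94, 1.97 and 1.64 on control arrays. Here all TSN arrays were below all controls, and it fell by 0.64 (SE 0.22, adjusted p = 0.0194). That call was lost without TSN array 2 or 3 (adjusted p 0.0663 and 0.0773) and under 6 of the 12 alternatives (adjusted p 0.0638 to 0.851), with a sign that turned without scaling (0.13, relative to the median miRNA). At day 21 it had 1.56, 1.00, 0.997 and 1.13 on TSN arrays, against 1.64, 1.64, 1.66 and 1.69 on control arrays. No TSN array reached the controls, but the change of -0.48 (95% interval -0.93 to -0.03) did not pass at an adjusted p of 0.0772. It passed at 0.0382 without TSN array 1, after quantile normalization (-0.78, adjusted p = 0.0284), in the authors' deposited values (-0.68, adjusted p = 0.0414) and with only the groups compared in the fit (adjusted p = 0.0225). The order of means was 2.64 for TSN day 9, 1.88 for control day 3, 1.66 for control day 21, 1.36 for control day 9, 1.24 for TSN day 3 and 1.17 for TSN day 21, and TSN day 9 alone stood clear of its neighbour.

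mmu-miR-486a-3p, the partner strand, had a lower scaled level in TSN exosomes at all 3 days, and less so at day 9. Its unscaled means were higher on TSN than on control arrays. They were 33.15 against 15.27 units at day 3, 76.11 against 11.79 at day 9 and 35.37 against 22.22 at day 21. Levels were -4.99, -5.29, -5.56 and -4.96 on TSN day 3 arrays, against -3.33, -3.24, -3.38 and -3.69 on control day 3 arrays, and -5.08, -5.21, -5.80 and -5.32 on TSN day 21 arrays, against -3.71, -3.93, -3.82 and -3.50 on control day 21 arrays. TSN arrays were at least 1 log2 unit below the lowest control array of their day, and it fell by 1.79 at day 3 (SE 0.22, adjusted p = 1.08e-06) and by 1.61 at day 21 (SE 0.22, adjusted p = 6.09e-06). At day 9 the levels were -4.34, -4.22, -4.51 and -4.26 on TSN arrays, against -4.52, -3.20, -3.64 and -3.43 on control arrays. Control array 1 lay below all TSN arrays, and it fell by 0.63 (SE 0.22, adjusted p = 0.0166), which did not pass without control array 2 or 4 (adjusted p 0.0742 and 0.0541) and turned sign under spike-in scaling and without scaling (0.086 and 0.13, relative to the median miRNA). The probe was well above background on all 12 TSN arrays, against 4, 2 and 3 of 4 control arrays at days 3, 9 and 21, at 18.9 to 86.8 unscaled units on TSN arrays and 5.13 to 43.3 units on control arrays. In order, the means were -3.41, -3.70 and -3.74 for control days 3, 9 and 21, -4.33 for TSN day 9, and -5.20 and -5.35 for TSN days 3 and 21, with TSN day 9 clear of both its neighbours in that order.

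**Figure D2:**
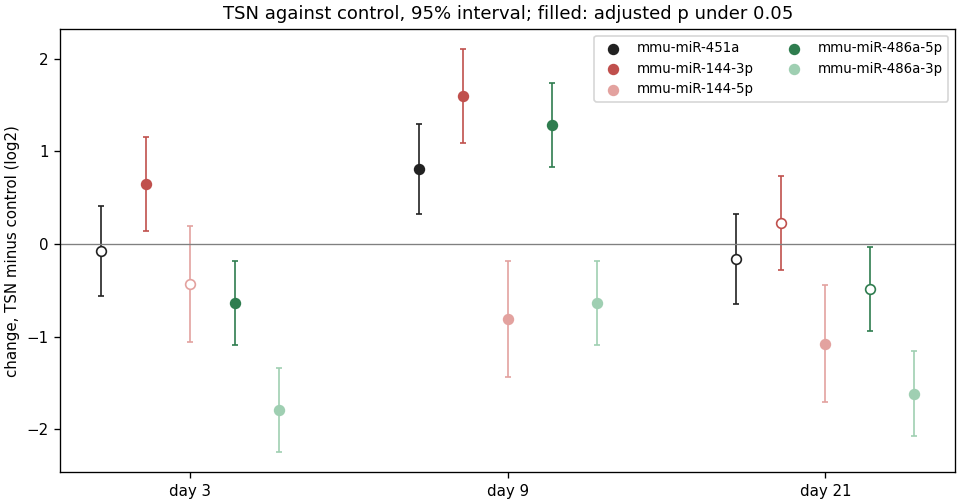
Change of each member, TSN minus control (log2), with its 95% interval at days 3, 9 and 21; filled points passed an adjusted p of 0.05 and open points did not. mmu-miR-144-3p, mmu-miR-486a-5p and mmu-miR-451a were above 0 at day 9, and mmu-miR-486a-3p was below 0 at each day, although its day 9 sign turned under spike-in scaling and without scaling, as did that of mmu-miR-144-5p without scaling.

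Among all 444 tested miRNAs, the day 9 change of mmu-miR-144-3p stood at percentile 96.0, that of mmu-miR-486a-5p at 92.6 and that of mmu-miR-451a at 84.0, beside a median change of -0.04 over all tested. The day 3 and day 21 falls of mmu-miR-486a-3p stood at percentiles 5.63 and 1.80, beside medians of 0.10 and 0.01. The other probe of each member gave changes of the same sign on all 3 days, for example 1.58 for mmu-miR-144-3p, 1.41 for mmu-miR-486a-5p and 0.92 for mmu-miR-451a at day 9.

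The test of whether the TSN effect differed between days was passed by several members. Each such test set days of at least 1 arm from different slides against each other. A differing effect therefore cannot be told apart from slide. The effect at day 9 was above that at day 3 by 1.92 for mmu-miR-486a-5p (SE 0.30, limma, adjusted p = 0.000289) and by 1.16 for mmu-miR-486a-3p (SE 0.31, adjusted p = 0.0119), 2 of 5 members. Of all tested miRNAs 18.9% were called in either direction, 17 higher and 67 lower. For mmu-miR-144-3p and mmu-miR-451a that difference was 0.95 and 0.88 and did not pass (adjusted p = 0.0583 and 0.0674). It passed for both without control day 3 array 1 (adjusted p = 0.0361 and 0.0415) or control day 9 array 2 (adjusted p = 0.0439 and 0.0321), and for mmu-miR-144-3p also without TSN day 3 array 4 or TSN day 9 array 3 (adjusted p = 0.0447 and 0.0468). The effect at day 21 was below that at day 9 for 4 of 5 members. Of all tested miRNAs 34.7% were called in either direction, 102 higher and 52 lower. The effect dropped by 1.77 for mmu-miR-486a-5p (limma, adjusted p = 0.000529), by 1.37 for mmu-miR-144-3p (adjusted p = 0.00472), by 0.98 for mmu-miR-486a-3p (adjusted p = 0.0193) and by 0.97 for mmu-miR-451a (adjusted p = 0.0297). The difference for mmu-miR-451a did not pass without control day 9 array 1, control day 21 array 4, TSN day 9 array 1 or 2, or TSN day 21 array 3 (adjusted p 0.0512 to 0.07). Between days 3 and 21 the effect differed for none of the 5 members by limma (0 at an unadjusted p under 0.05), where 13.1% of all tested miRNAs were called.

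Within the TSN arm, both miR-486a strands and mmu-miR-144-3p were lower at day 21 than at day 9, a comparison within 1 slide. In TSN day 21 against TSN day 9 exosomes, mmu-miR-486a-5p dropped by 1.47 (SE 0.22, adjusted p = 4.87e-05), mmu-miR-486a-3p by 1.02 (SE 0.22, adjusted p = 0.00089) and mmu-miR-144-3p by 0.90 (SE 0.24, adjusted p = 0.0052). mmu-miR-451a had a change of -0.55 with no overlap between the days, which did not pass (adjusted p = 0.0636), and mmu-miR-144-5p one of 0.08 (adjusted p = 0.915). The members called were 3 of 5, all lower. Of all tested miRNAs 43.5% were called in either direction, 136 higher and 57 lower. In TSN day 9 against TSN day 3 exosomes, on different slides, 4 of 5 members rose. The rises were 1.40 for mmu-miR-486a-5p, 1.15 for mmu-miR-451a, 0.87 for mmu-miR-486a-3p and 0.83 for mmu-miR-144-3p. Of all tested miRNAs 34.9% were called in either direction in this comparison, 44 higher and 111 lower. Under quantile normalization mmu-miR-451a turned to -0.062 here, and under normexp background correction mmu-miR-486a-3p turned to -0.020. In TSN day 21 against TSN day 3 exosomes limma called none of the 5 (1 at an unadjusted p under 0.05, mmu-miR-451a with a change of 0.60), where 6.98% of all tested miRNAs were called.

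The days of the control arm were compared in the same way. In control day 9 against control day 3 exosomes, within a slide, none of the 5 was called by limma (1 at an unadjusted p under 0.05, mmu-miR-486a-5p with -0.52), where 13.7% of all tested miRNAs were called. In control day 21 against control day 9 exosomes limma called none (0 at an unadjusted p under 0.05), where 0.45% of all tested miRNAs were called. In control day 21 against control day 3 exosomes mmu-miR-451a rose by 0.69 (SE 0.23, limma, adjusted p = 0.039), 1 of 5 members. It did not pass without control day 3 array 1, 2 or 4 or control day 21 array 4 (adjusted p 0.0504 to 0.16). Of all tested miRNAs 22.7% were called in either direction, 75 higher and 26 lower.

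Differences between 2 miRNAs of the same array do not depend on how that array was scaled. The first such comparison set mmu-miR-144-3p against mmu-miR-451a, which come from 1 transcript. The difference was -4.44, -4.38, -4.58 and -4.85 on TSN day 9 arrays, against -5.24, -5.54, -5.24 and -5.37 on control day 9 arrays. It was -4.18, -4.19, -4.39 and -4.22 on TSN day 3 arrays, against -4.97, -4.91, -5.03 and -4.96 on control day 3 arrays. The arms did not overlap on these days, and mmu-miR-144-3p rose relative to mmu-miR-451a by 0.79 at day 9 (SE 0.22, adjusted p = 0.00261) and by 0.72 at day 3 (SE 0.22, adjusted p = 0.00993). At day 21 the difference was -5.02, -4.98, -4.84 and -4.81 on TSN arrays, against -5.30, -5.20, -5.43 and -5.26 on control arrays, again apart, but the change of 0.39 (95% interval -0.06 to 0.84) did not pass (adjusted p = 0.21). Of the 443 differences to mmu-miR-451a, 35%, 67.7% and 23.9% were called at days 3, 9 and 21. In the authors' deposited values, where mmu-miR-451a sat at the table's top value on 7 TSN arrays, this difference had the opposite sign at all 3 days (-0.50, -0.58 and -1.25). Under normexp background correction neither call passed, with 0.26 at day 9 (adjusted p = 0.486) and 0.35 at day 3 (adjusted p = 0.374).

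The strands of a hairpin also moved apart: mmu-miR-144-5p fell relative to mmu-miR-144-3p, and mmu-miR-486a-3p relative to mmu-miR-486a-5p, in TSN exosomes. mmu-miR-144-5p minus mmu-miR-144-3p was -4.56, -5.24, -4.73 and -5.04 on TSN day 9 arrays, against -2.18, -2.74, -2.62 and -2.41 on control day 9 arrays, a gap of more than 1 log2 unit between the arms. This difference fell by 2.40 at day 9 (SE 0.25, adjusted p = 4.45e-10), by 1.08 at day 3 (SE 0.25, adjusted p = 0.000991) and by 1.30 at day 21 (SE 0.25, adjusted p = 0.00023), without overlap on any day. Of the 443 differences to mmu-miR-144-3p, 36.3%, 88.3% and 28% were called at days 3, 9 and 21.

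mmu-miR-486a-3p minus mmu-miR-486a-5p was -7.05, -7.21, -6.84 and -6.79 on TSN day 9 arrays, against -5.20, -5.10, -5.15 and -4.78 on control day 9 arrays. It fell by 1.92 at day 9 (SE 0.23, adjusted p = 9.77e-09), by 1.16 at day 3 (SE 0.23, adjusted p = 0.000105) and by 1.13 at day 21 (SE 0.23, adjusted p = 0.000237), again with no overlap. Of the 443 differences to mmu-miR-486a-5p, 65.2%, 81.3% and 36.1% were called at days 3, 9 and 21. In the deposited values the falls at days 3 and 21 were -0.17 and -0.33 and did not pass, and with the software's total gene signal that at day 3 did not pass, nor did that of the miR-144 strands at day 21. mmu-miR-144-5p and mmu-miR-486a-3p gave dim signals and the control arrays were the dimmer arm, and the part of that brightness in the result was not tested.

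**Figure D3:**
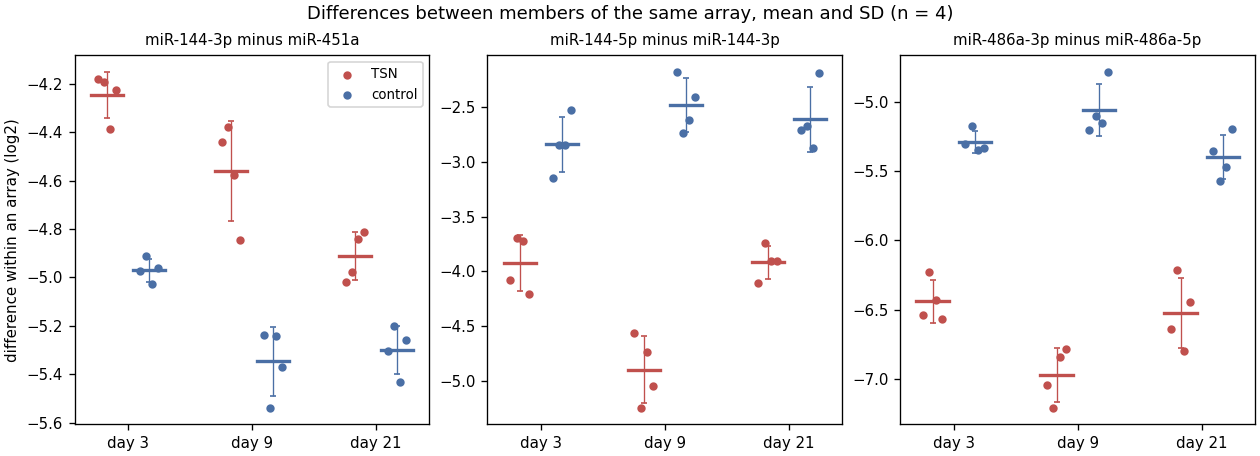
Difference between a pair of members on the same array (log2), TSN in red and control in blue at each day, with mean and SD (n = 4). The arms lie apart in all 3 panels at all 3 days, with TSN higher for miR-144-3p minus miR-451a and TSN lower for the strand pairs; the first panel has the opposite sign in the authors' deposited values.

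Against mmu-miR-23a-3p, the denominator of the red cell lysis check, mmu-miR-451a fell by 0.94 at day 3 in TSN exosomes (SE 0.29, adjusted p = 0.00703), with differences of 2.63 ± 0.58 on TSN arrays and 3.57 ± 0.55 on control arrays. At day 9 they were 4.02 ± 0.18 on TSN arrays and 3.63 ± 0.48 on control arrays (change 0.38, 95% interval -0.22 to 0.98, adjusted p = 0.249), and at day 21 3.48 ± 0.25 on TSN arrays and 3.56 ± 0.40 on control arrays (change -0.07, adjusted p = 0.878). In the authors' deposited values the difference was called higher at day 9 (1.89, adjusted p = 9.17e-06) and day 21 (2.03, adjusted p = 7.63e-06), and its day 3 sign turned (0.56, adjusted p = 0.152). mmu-miR-23a-3p itself was higher in TSN exosomes at days 3 and 9 (changes 0.86 and 0.43, adjusted p = 0.000221 and 0.0325) and not called at day 21 (-0.09, adjusted p = 0.748).

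Against the same denominator at day 9, mmu-miR-144-3p rose by 1.17 (SE 0.29, adjusted p = 0.00146) and mmu-miR-486a-5p by 0.86 (SE 0.27, adjusted p = 0.00998, but 0.0603 without control array 1). At day 3 mmu-miR-486a-5p fell by 1.50 (SE 0.27, adjusted p = 6.53e-05), and at day 21 neither was called. Of the 443 differences to mmu-miR-23a-3p, 65%, 56.7% and 35% were called at days 3, 9 and 21. mmu-miR-486a-5p set against mmu-miR-451a changed by -0.56, 0.48 and -0.32 at days 3, 9 and 21, and none of these passed (adjusted p 0.0941, 0.101 and 0.403). Day 3 passed without control array 3 (-0.69, adjusted p = 0.0496), and the authors' deposited values, with mmu-miR-451a at their top value on 7 TSN arrays, called all 3 days lower (-1.98, -0.78 and -2.19).

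A chosen list of other miRNAs that red cells carry, which is not complete, was read beside the members. It held the miR-16 and miR-15 family, miR-92a, miR-25, miR-363, miR-185, the miR-183 cluster (miR-182, miR-96 and miR-183), miR-486b and miR-451b. Of the 12 entries on the array, 7 could be tested, and 5 of them rose at day 9 (27.9% of all tested miRNAs did) while 1, mmu-miR-486b-3p, fell (34.2% did). The signal of mmu-miR-486b-3p cannot be separated from that of mmu-miR-486a-3p, so its falls are not separate from that member's. mmu-miR-486b-3p was well above background on all TSN arrays, against 4, 1 and 3 of 4 control arrays at days 3, 9 and 21. The median of the 7 was 0.92, beside -0.04 for all tested. The smallest adjusted p belonged to mmu-miR-25-3p, a member of the miR-106b cluster, with a rise of 1.41 (SE 0.22, adjusted p = 1.68e-05), and to mmu-miR-15a-5p, a regulator of the cell cycle, with 1.32 (SE 0.20, adjusted p = 1.91e-05).

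The summed scaled level of the 12 was 14 to 16.7 on TSN day 9 arrays, above the 7.25 to 11.8 on control day 9 arrays, whereas it was 6.11 to 10.1 on TSN and 6.97 to 9.36 on control arrays at day 3, and 5.88 to 8.42 on TSN and 9.78 to 13.3 on control arrays at day 21. At day 3, 2 of the 7 rose (29.1% of all tested miRNAs did) and 2 fell (18.2% did), with a median of 0.27, beside 0.10 for all tested. The smallest adjusted p of that day belonged to mmu-miR-486b-3p (-1.68, limma, adjusted p = 7.98e-07) and to mmu-miR-185-5p (1.32, adjusted p = 9.97e-07, detected on 2 of the 4 control arrays). The count of rises at day 3 was 0 or 1 under 9 of the 12 alternatives and 1 with each of 7 arrays left out, but 4 without TSN array 2. The fall at day 9 was not called under 6 alternatives or without control array 2, 3 or 4 or TSN array 3. At day 21 none rose by limma (0 at an unadjusted p under 0.05), where 23.2% of all tested miRNAs did. Of the 7, 3 fell (21.6% of all tested miRNAs did), with a median of -0.38, beside 0.01 for all tested. The smallest adjusted p of that day belonged to mmu-miR-486b-3p (-1.54, limma, adjusted p = 3.16e-06) and to mmu-miR-16-5p (-1.33, adjusted p = 6.8e-06). Within the TSN slide, 6 of the 7, mmu-miR-486b-3p among them, were lower at day 21 than at day 9 (median -0.996, beside 0.17 for all tested). In that comparison 43.5% of all tested miRNAs were called in either direction, 136 higher and 57 lower. mmu-miR-451b, cut from the opposite strand of the miR-451a locus, was well above background on 0 of 24 arrays, as were mmu-miR-182-5p and mmu-miR-96-5p.

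Striated muscle also makes miR-486, and its own miRNAs moved on the same day. The 3 muscle miRNAs that could be tested entered the test only through the TSN groups. None was well above background on all 4 control arrays of any day, so their count carries no weight. mmu-miR-133b-3p and mmu-miR-133a-3p, which restrain muscle gene programs, were well above background on 0 of 4 control day 9 arrays and were at least 21.1-fold and at least 6.35-fold higher (adjusted p = 3.22e-08 and 5.96e-07), set against the lowest signal well above background on those arrays. For mmu-miR-1a-3p, 1 of the 4 control arrays had a signal well above background. The summed level of the 7 muscle miRNAs on the array was 0.472 to 4.88 on TSN day 9 arrays and 0.0512 to 0.102 on control day 9 arrays, while mmu-miR-206-3p, mmu-miR-208a-3p, mmu-miR-208b-3p and mmu-miR-499-5p were well above background on 0 of 24 arrays. At day 3, 1 of the 3 was called higher (mmu-miR-133b-3p, at least 1.38-fold, adjusted p = 0.0439; mmu-miR-133a-3p, 0.57, adjusted p = 0.411), with sums of 0.0878 to 0.186 on TSN and 0.0702 to 0.1 on control arrays. At day 21 none was called by limma, and 0 of 3 had an unadjusted p under 0.05 (mmu-miR-1a-3p, -0.79, adjusted p = 0.161; mmu-miR-133b-3p, 0.53, adjusted p = 0.525), with sums of 0.0529 to 0.133 on TSN and 0.0498 to 0.164 on control arrays. The part of muscle RNA in the mmu-miR-486a-5p result was not tested.

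The miRNAs of platelets and leukocytes did not rise at day 9 by limma, where 0 of either list was higher at an unadjusted p under 0.05. No control array had the platelet miRNA mmu-miR-191-5p well above background, whereas 3, 4 and 4 TSN arrays did at days 3, 9 and 21. Its control means on those days were -6.21, -6.12 and -6.21, at or near the log2 floor of -6.21. It had almost no room to fall and a rise could be understated, so it carries no weight in the platelet counts of any day. At day 9, 34.2% of all tested miRNAs fell. Of 6 platelet miRNAs 3 fell (median -0.50), led by mmu-miR-126a-3p (-0.81, adjusted p = 0.000791) and mmu-miR-21a-5p (-0.54, adjusted p = 0.017), and of 6 tested leukocyte miRNAs 3 fell (median -0.45), led by mmu-miR-142a-3p (-1.54, adjusted p = 0.000131) and mmu-miR-150-5p (-1.18, adjusted p = 0.000895, well above background on 1 of 4 control arrays). Their summed levels at day 9 were 9.35 to 11.1 on TSN and 11.8 to 16.1 on control arrays for platelets, and 1.84 to 2.32 on TSN and 3.19 to 3.86 on control arrays for leukocytes, with mmu-miR-155-5p of the leukocyte list well above background on 0 of 24 arrays. At day 3, 29.1% of all tested miRNAs rose and 18.2% fell. Of the 6 platelet miRNAs 1 rose and none fell by limma, with 0 lower at an unadjusted p under 0.05 (mmu-miR-21a-5p, 0.47, and mmu-miR-199a-3p, -0.48, not called). Of the 6 tested leukocyte miRNAs 1 rose and 2 fell (mmu-miR-142a-5p, 1.08, and mmu-miR-150-5p, -1.32, well above background on 2 of 4 control arrays). At day 21, none of either list rose by limma (0 at an unadjusted p under 0.05), where 23.2% of all tested miRNAs did. At that day 21.6% of all tested miRNAs fell. Of the 6 platelet miRNAs 4 fell, led by mmu-miR-223-3p (-1.09), which both lists hold, and mmu-miR-21a-5p (-0.65). Of the 6 tested leukocyte miRNAs 4 fell, led by mmu-miR-223-3p and mmu-miR-146a-5p (-0.89).

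Of the 4 liver miRNAs tested, 3 rose at day 9, where 27.9% of all tested miRNAs did (median 1.50). mmu-miR-148a-3p rose by 1.58 (limma, adjusted p = 5.25e-07, well above background on 2 of 4 control arrays). mmu-miR-101a-3p, which shares seed bases 2 to 7 with mmu-miR-144-3p, rose by 0.94 (adjusted p = 8.96e-05, on 1 of 4 control arrays). These 2 entered the test only through the TSN groups, so the count carries no weight. mmu-miR-192-5p rose by 1.41 (adjusted p = 0.0204), with overlapping groups and an SD of 1.60 on TSN and 0.17 on control arrays. mmu-miR-122-5p was not called (1.755, adjusted p = 0.0653), with overlapping groups and an SD of 2.27 on TSN and 0.92 on control arrays. The summed level of the 5 liver miRNAs on the array was 0.597 to 5.01 on TSN and 0.331 to 0.503 on control arrays at that day. At days 3 and 21, 1 of the 4 rose (mmu-miR-148a-3p, 1.47 and 0.69), where 29.1% and 23.2% of all tested miRNAs did. mmu-miR-101a-3p was at 0.33 (limma, adjusted p = 0.119) at day 3 and mmu-miR-192-5p at -0.40 (adjusted p = 0.587) at day 21.

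Arrays of a group differed from each other, and there mmu-miR-451a and mmu-miR-144-3p went together. Over the 24 arrays, deviations from the group means had a Pearson r of 0.93 between mmu-miR-451a and mmu-miR-144-3p, and for each of them the other had the highest r among the 152 miRNAs well above background on every array. For mmu-miR-451a the next were mmu-miR-106b-5p (0.78) and mmu-miR-16-5p (0.76), and for mmu-miR-144-3p they were mmu-miR-144-5p (0.81) and mmu-let-7d-5p (0.74). For mmu-miR-486a-5p the highest were mmu-miR-106b-5p (0.83), mmu-miR-25-3p (0.80) and mmu-miR-93-5p (0.78), which come from 1 cluster in an intron of Mcm7. For mmu-miR-144-5p they were mmu-let-7f-5p (0.94), mmu-let-7a-5p (0.94) and mmu-miR-26b-5p (0.93). mmu-miR-486a-5p had an r of 0.84 with mmu-miR-486a-3p, 0.63 with mmu-miR-451a and 0.07 with mmu-miR-144-5p. These values are a description: the points share arrays, brightness and scaling. Of the 3 highest, 0 were kept in the deposited values for mmu-miR-451a and 0 with total gene signal for mmu-miR-144-5p, and 1 with normexp for mmu-miR-144-3p and for mmu-miR-486a-5p.

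**Figure D4:**
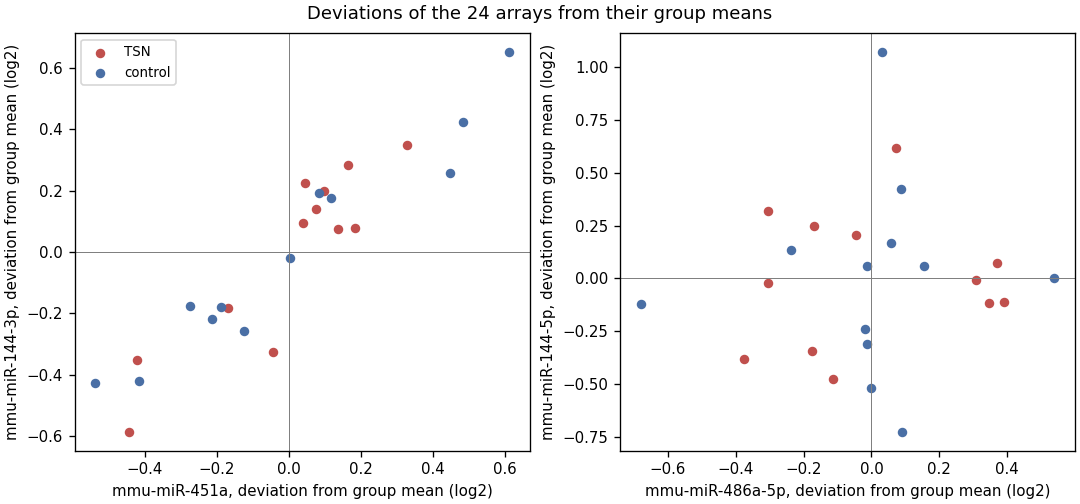
Deviation of each of the 24 arrays from its group mean (log2), TSN in red and control in blue, for mmu-miR-144-3p over mmu-miR-451a (left, r = 0.93) and for mmu-miR-144-5p over mmu-miR-486a-5p (right, r = 0.07). The arrays line up along a diagonal on the left and scatter on the right.

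By the course of the 6 group means, each centred on its own mean, the closest miRNAs were others. For mmu-miR-486a-5p they were mmu-miR-25-3p, mmu-miR-93-5p and mmu-miR-15a-5p, with root mean square differences of 0.21, 0.23 and 0.29, against a median of 0.73 over the other miRNAs. For mmu-miR-451a they were mmu-miR-30b-5p, mmu-miR-93-5p and mmu-miR-15b-5p (0.20, 0.23 and 0.23, against a median of 0.61). For mmu-miR-144-3p they were mmu-miR-192-5p, mmu-miR-107-3p and mmu-let-7d-5p (0.21, 0.22 and 0.27, against 0.72), and for mmu-miR-144-5p mmu-miR-27a-3p, mmu-miR-221-3p and mmu-miR-328-3p (0.15, 0.16 and 0.19, against 0.51). These names depended on the processing: of the 3 closest to mmu-miR-451a, 0 were kept after quantile normalization and in the deposited values. Of those to mmu-miR-144-3p, 1 was kept after quantile normalization and 0 with normexp, and of those to mmu-miR-144-5p, 0 with total gene signal. At least 2 of those to mmu-miR-486a-5p were kept under all 7 alternatives. mmu-miR-144-3p ranked 20th for mmu-miR-451a by this measure. mmu-miR-486a-3p was left out of this search, since it was not well above background on every array.

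The rises of mmu-miR-144-3p, mmu-miR-486a-5p and mmu-miR-451a at day 9 passed under all 12 alternative ways of processing and without each of the 8 arrays in turn. Their changes ranged from 1.00 to 2.71, from 0.80 to 2.40 and from 0.81 to 1.92 over those alternatives. Dropping the filter, the replicate block and fitting only the groups compared alter the test but not the change itself. In the deposited values every TSN day 9 array of mmu-miR-451a sat at the top value of 15.8, so its level there is not resolved. The difference of mmu-miR-451a to mmu-miR-23a-3p at day 9 was not called (0.38, limma, adjusted p = 0.249).

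**Figure D5:**
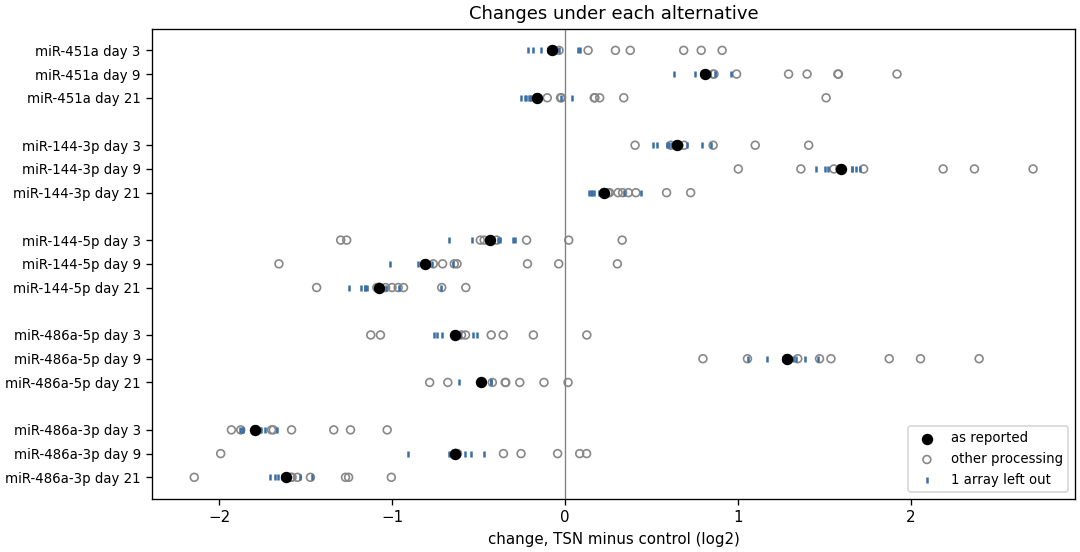
Change of each member at each day, TSN minus control (log2), as reported (black), under the 12 other ways of processing (open circles) and with 1 array left out (blue ticks); values under other scalings are relative to the median tested miRNA. The day 9 values of miR-144-3p, miR-486a-5p and miR-451a stay above 0, while those of miR-451a at days 3 and 21, miR-144-5p at days 3 and 9, miR-486a-5p at days 3 and 21 and miR-486a-3p at day 9 reach both sides of 0.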

How the data were processed

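The data were one-colour Agilent mouse miRNA arrays of serum exosome RNA, 24 in all. Per the file headers, the authors' scanner files hold spot intensity from Feature Extraction 10.7.1.1, and the background-subtracted processed intensity was used. The authors also deposited log2 values per miRNA, used as an alternative; its scale and centring are not stated, its array medians were 4.37 to 4.40, and it correlated with the scanner values at 0.955 to 0.982. Spots of a probe were averaged without outlier spots (median of 15 spots), divided by the array's 75th percentile, taken over the 261 probes that every array detected well above background, floored at 0.0135 and put on the log2 scale. The probe with the highest mean stood for a miRNA. A miRNA was tested where it was well above background on every array of at least 1 group, which left 444 of 1881.

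All 6 groups were fitted together with limma 3.58.1 in R 4.3.3 (data.table version 1.17.8), with Benjamini-Hochberg adjustment at 0.05 over all tested miRNAs in each of 12 comparisons; differences within an array were fitted in the same way over all differences to 1 miRNA. The fit was tested on simulated data. The number of arrays limits the precision. The miRNAs named are the 5 members, those of the marker lists (values for the 2 of each list with the smallest adjusted p per day) and the 3 most like each member. The members and lists were chosen with earlier results of these data known. mmu-miR-192-5p and mmu-miR-122-5p at day 9 and the list miRNAs detected on 0 of 24 arrays were named beyond that rule, after their values were seen. Replicate numbers, which are the place on the slide, were checked as pairs. Deviations from the group means correlated at 0.20 to 0.35 in all 4 pairs of TSN and control day 9 over 444 miRNAs. Over the 152 miRNAs that every array detected, r ran from -0.19 to 0.50 and only 2 of 4 pairs were above 0.1. In no other comparison were all pairs above 0.1. This does not settle whether the numbers pair those arrays. The main fit used no pairing. Alternatives changed the background, scaling, spot summary, probe choice, floor, filter, groups in the fit, replicate block and arrays left out.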

Additional observations from a re-analysis of the deposited data

Results flagged for a closer look

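In 4 of the 30 groups of 4 arrays checked, 1 array stood apart from the other 3 by Dixon's ratio, the gap to the nearest array over the whole range, above the 95% critical value; chance gives such a flag in about 1 of 20 groups. For mmu-miR-451a these were TSN day 21 array 3, the lowest (5.21, ratio 0.858), and control day 21 array 4, the highest (6.41, ratio 0.832). The same control array was the highest for mmu-miR-144-3p (1.15, ratio 0.910). For mmu-miR-486a-5p control day 3 array 4 was the lowest (1.64, ratio 0.904).

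The TSN effect differed between days by the interaction test in limma for 6 results, all across slides, so that slide cannot be told apart. At day 9 against day 3 the differences were 1.92 for mmu-miR-486a-5p and 1.16 for mmu-miR-486a-3p. At day 21 against day 9 they were -0.97 for mmu-miR-451a, -1.37 for mmu-miR-144-3p, -1.77 for mmu-miR-486a-5p and -0.98 for mmu-miR-486a-3p.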

How the results depend on the processing

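Of 1593 values of 81 tested results under the alternatives, 1370 kept their direction and side of the threshold, 101 lost the call, 19 gained it, 18 reversed and 85 changed sign without being called; the causes were not tested. Values under other scalings and the deposited values are relative to the median tested miRNA, since the median TSN change moved by up to 2.45 without scaling, 1.88 with spike-in scaling, 0.80 with the percentile over all probes and 0.37 in the deposited values; quantile normalization moved it by under 0.1. Normexp values are as fitted, with medians of -1.52, -1.74 and -1.17 at days 3, 9 and 21.

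Reversed values were as follows. Quantile normalization gave 0.79 for mmu-miR-451a at day 3 and -0.062 for TSN day 9 against day 3. Spike-in scaling gave 0.086 for mmu-miR-486a-3p at day 9. No scaling gave 0.13 for mmu-miR-486a-5p at day 3, and 0.30 for mmu-miR-144-5p and 0.13 for mmu-miR-486a-3p at day 9. The deposited values gave 0.91, 1.51 and, for the day 21 minus day 9 effect, 0.064 for mmu-miR-451a, 0.56 and 2.03 for mmu-miR-451a minus mmu-miR-23a-3p at days 3 and 21, -0.50, -0.58 and -1.25 for mmu-miR-144-3p minus mmu-miR-451a, and -0.78 for mmu-miR-486a-5p minus mmu-miR-451a at day 9. Normexp gave -0.12, 0.44 and -0.020 for mmu-miR-486a-3p in the day 9 minus day 3 effect, the day 21 minus day 9 effect and TSN day 9 against day 3.

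Counts of members also moved. At day 3 members lower were 1 with the percentile over all probes, spike-in scaling, no scaling, total gene signal and no filter, and members higher were 0 with no filter or only the groups compared. At day 9 members lower were 0 with quantile normalization, with the percentile over all probes, spike-in scaling, no scaling, total gene signal and no filter, and 1 in the deposited values and with only the groups compared. At day 21 members lower were 1 with the percentile over all probes, spike-in scaling, no scaling and total gene signal, and members higher were 1 in the deposited values. The day 9 minus day 3 effect was called for 1 member with spike-in scaling, normexp, total gene signal and no filter, and 0 without scaling. The day 21 minus day 9 effect was called for 2 with quantile normalization, spike-in scaling, normexp, total gene signal and no filter, and 1 without scaling and in the deposited values. TSN day 9 against day 3 gave 2 with quantile normalization, spike-in scaling and the deposited values, and 0 without scaling, where TSN day 21 against day 9 also gave 0. TSN day 21 against day 3 gave 1 in the deposited values, and control day 21 against day 3 gave 0 in 8 alternatives. Differences within an array were called for 3 at day 3 and 5 at day 21 in the deposited values, and for 1 at day 21 with total gene signal.

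Over all tested miRNAs, normexp called 23 higher and 351 lower, 30 and 375, and 17 and 345 at days 3, 9 and 21. Lower calls at day 3 were 122 with the percentile over all probes, 131 with spike-in scaling and 146 without scaling. Higher calls at day 21 were 52 and 42 with spike-in scaling and without scaling, and total gene signal called 91 lower at day 9 and 60 at day 21.

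Leaving out 1 array gave 2 to 4 members for the day 9 minus day 3 effect, 0 to 1 for control day 21 against day 3 and for members higher at day 3, 1 to 2 for members lower at day 3 and 0 to 2 at day 9. The replicate block changed no member's call, with 1.60 for mmu-miR-144-3p at day 9 (limma, adjusted p = 3.71e-05), and moved 1 count, the other red cell miRNAs higher at day 3, to 1 against 2. Slide as a block could not be fitted between the arms, since no slide held both. mmu-miR-486a-3p was not well above background on 3 control arrays, which limits its values there.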
